A study of Mus musculus with 4 samples.

Results

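A set of 58 well-counted long intergenic non-coding RNAs (lincRNAs) of lung CD11b+Ly6g+ myeloid-derived suppressor cells (MDSCs) were described in 4 mRNA libraries. They were chosen by the lowest of their 4 counts: a row of the deposited table had to carry the biotype lincRNA and at least 100 reads in each of the Ctrl, TP5, sFD17 and FR17 libraries. Of 5559 lincRNA rows 58 met this rule (1.04%), among 54532 rows in all, and 3892 lincRNA rows had 0 counts in every library. A further 35 lincRNA rows reached 100 counts in 1 to 3 libraries and are therefore no members. Just inside the limit stood 2010013B24Rik and Gm44751, each with a lowest count of 100, and 4833418N02Rik with 102. Just outside stood Gm10076 with a lowest count of 99, Gm34643 with 96 and AC140186.1 with 94.

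All 4 groups were C57BL/6 mice of 6 to 8 weeks in a model of the pulmonary pre-metastatic niche (PMN). They received 300 µL of MCM, medium conditioned by B16F10 mouse melanoma cells, into the abdomen every day, and were injected in the tail vein with B16F10 cells at day 7. The Ctrl mice received no peptide, and the other groups received TP5, sFD17 or FR17 under the skin at 40 µM/kg/day from day 3 until lungs were taken on day 10. TP5 is free thymopentin, an immunomodulating peptide, FR17 carries it on a peptide that MMP2 cleaves into self-assembling units, and sFD17 assembles in the same way but carries a scrambled sequence. Cells that stained for CD11b and Ly6g were sorted from the lungs of 10 to 12 mice per group and pooled into 1 library.

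Each group is 1 library and has no replicate spread, so no p-value is given and every difference is one between 2 libraries. The libraries held 17132880 (Ctrl), 17165184 (TP5), 15543071 (sFD17) and 19638228 (FR17) counts. Levels are CPM values, read counts set relative to the library total, scaled by edgeR's TMM factors, differences are log2 fold changes of log2 CPM, and the 95% interval of a pair of counts covers counting error only. A row is called past 2-fold when its log2 fold change reaches 1 or −1. Members are read against all 8108 rows of any biotype with at least 100 counts in each library, which is the same count rule without the biotype. The 10 neutrophil markers, Ly6g among them, summed in that order of libraries to 29300, 30300, 37800 and 25000 CPM, and no marker of the list was at 0. The 10 macrophage markers summed to 9620, 7200, 3590 and 11900 CPM in the same order, and the 6 NK cell markers to 30.5, 25, 27 and 89.7 CPM. In bulk libraries a smaller share of cells of one type and less RNA per cell cannot be told apart.

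LincRNAs are transcripts longer than those of the small RNA classes, are made by RNA polymerase II from loci between coding genes and are mostly not translated. Some stay in the nucleus and scaffold nuclear bodies, some act near their own locus on a neighbouring gene, some are hosts from whose introns or exons small RNAs are cut, and some bind proteins or microRNAs in the cytoplasm. In myeloid cells, lincRNAs near Bcl2l11 and Ptgs2 are known for roles in cell survival and in inflammatory gene expression. Of the members, 9 belong to lists of such named RNAs, among them Mirt1, which stands in the microRNA host list by its symbol and is not known to host a microRNA. Of 5 listed X inactivation RNAs and 9 listed imprinted RNAs 0 met the rule, in part because their rows carry another biotype, as Peg13 does with 742, 730, 584 and 827 counts.

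Sequences of members with a feature named in their known role, or next to a microRNA cluster, are shown here with the part that matters in capitals. Mir142hg is the host transcript of miR-142, a microRNA of blood cells. The hairpin lies inside the body of Mir142hg on the same strand (chr11:87756864-87756927, GRCm38.p6), and the seed, bases 2 to 8 of each mature form, is in capitals.
mmu-miR-142a-5p: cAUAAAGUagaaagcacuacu
mmu-miR-142a-3p: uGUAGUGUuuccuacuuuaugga
Gm26532 begins at the end of the cluster of Mir23a, Mir27a and Mir24-2 on chromosome 8, whose last hairpin (chr8:84208815-84208921) reaches into the first bases of Gm26532 (chr8:84208920-84209609). The main mature forms of that cluster have 3 different seeds.
mmu-miR-23a-3p: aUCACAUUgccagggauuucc
mmu-miR-27a-3p: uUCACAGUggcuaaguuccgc
mmu-miR-24-3p: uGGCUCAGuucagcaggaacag

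2900097C17Rik, the mouse Norad, is known for binding Pumilio proteins, which recognise the element TGTANATA. Its GENCODE M21 transcript of 4915 bases holds 11 such elements, 2.24 per kilobase, whereas the next highest number in a member was 4 and 17 of the 58 members held at least 1. A few of the elements are printed with 10 bases on either side and the element in capitals.
Norad 651: agaagtcctgTGTATATAatatgaaaaa
Norad 1523: ctgactgctgTGTATATAgtggacaaca
Norad 2754: agtactactaTGTATATAggggacaaat
1700020I14Rik (Oip5os1, also called Cyrano) is known for an extensively paired site for miR-7. The better paired of 2 matches to the miR-7a seed lay at bases 2937 to 2959 of its transcript, and 13 of the 23 bases of miR-7a-5p stood opposite their complement without a gap. The seed and its match are in capitals.
mmu-miR-7a-5p: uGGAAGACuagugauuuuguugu
1700020I14Rik site: aacaaaatcaccaatGTCTTCCa

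Promoters, from 250 bases before to 50 bases after a RefSeq start (GRCm38.p6), were found for 35 of the 58 members, 32 of them by symbol. Some of these starts lie far from the start of the counted row, as for Gm14005 by 73414 bases. GAAANNGAA, the core of the interferon-stimulated response element, stood in 7 of these 35 (20%) on either strand, against 8.57% of all 27025 promoters. Among the 7, the start used lay 51961 bases from that of the counted row for Gm36723, 54967 for Gm31718 and 1417 for Gm46224. TTCNNNGAA, the gamma-activated site, stood in 5 (14.3%, against 8.47%), the E-box CACGTG in 2 (5.71%, against 7.24%) and TATAAA in 3 (8.57%, against 14.2%). GGGACTTTC and GGGAATTTC, forms of the NF-kB site, and TTGCGCAA, a C/EBP site, stood in 0 of the 35, against 0.344%, 0.278% and 0.185% of all promoters. In the first listed promoter Ptgs2os2 was the 1 member to hold both GAAANNGAA and TTCNNNGAA, and its promoter (chr1:150164899-150165198, minus strand) is shown with each match in capitals, GAAANNGAA lying on the opposite strand.
Ptgs2os2 promoter: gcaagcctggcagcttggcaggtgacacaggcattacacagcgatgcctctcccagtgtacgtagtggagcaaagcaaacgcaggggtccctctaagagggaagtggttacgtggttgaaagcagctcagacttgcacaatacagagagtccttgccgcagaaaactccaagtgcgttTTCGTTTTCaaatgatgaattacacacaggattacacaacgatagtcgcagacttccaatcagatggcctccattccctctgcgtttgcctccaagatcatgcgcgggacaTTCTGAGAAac
Snhg12 is a host gene of small nucleolar RNAs, and such genes are known to begin with a tract of pyrimidines. The longest run of C and T within 10 bases of its RefSeq start was 9 bases long, a length reached by 4.48% of all promoters. Among the members B230208H11Rik also had 9 and Gm34084 15, and neither is on the list of such host genes. The run of Snhg12 is in capitals in the 40 bases around the start (chr4:132308658-132308697, plus strand).
Snhg12 start: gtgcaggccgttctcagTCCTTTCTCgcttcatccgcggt

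Most of the 58 members had their highest level in sFD17 and most their lowest in FR17. Together they took 0.312% of all counts in Ctrl (exact binomial 95% interval 0.31 to 0.315), 0.258% in TP5 (0.255 to 0.26), 0.32% in sFD17 (0.318 to 0.323) and 0.257% in FR17 (0.255 to 0.259). The intervals of TP5 and FR17 overlapped, and without Malat1 the shares were 0.208%, 0.178%, 0.193% and 0.174%, with Ctrl above sFD17. The members held 76.4% to 81.3% of all lincRNA counts. The highest level was in sFD17 for 36 members, in Ctrl for 12, in TP5 for 5 and in FR17 for 5, whereas among all 8108 rows sFD17 was highest for 39.4%. The lowest level was in FR17 for 44 members, against 43.3% of all rows. The full order sFD17, Ctrl, TP5, FR17 held for 25 members (43.1%) and for 18.5% of all rows. With scaling by library size alone, 22 members were highest in sFD17 (18.1% of all rows) and 31 were lowest in FR17 (19.8% of all rows). The median range over the 4 libraries was 0.92 log2 units for members and 0.50 for all rows.

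**Figure D1:**
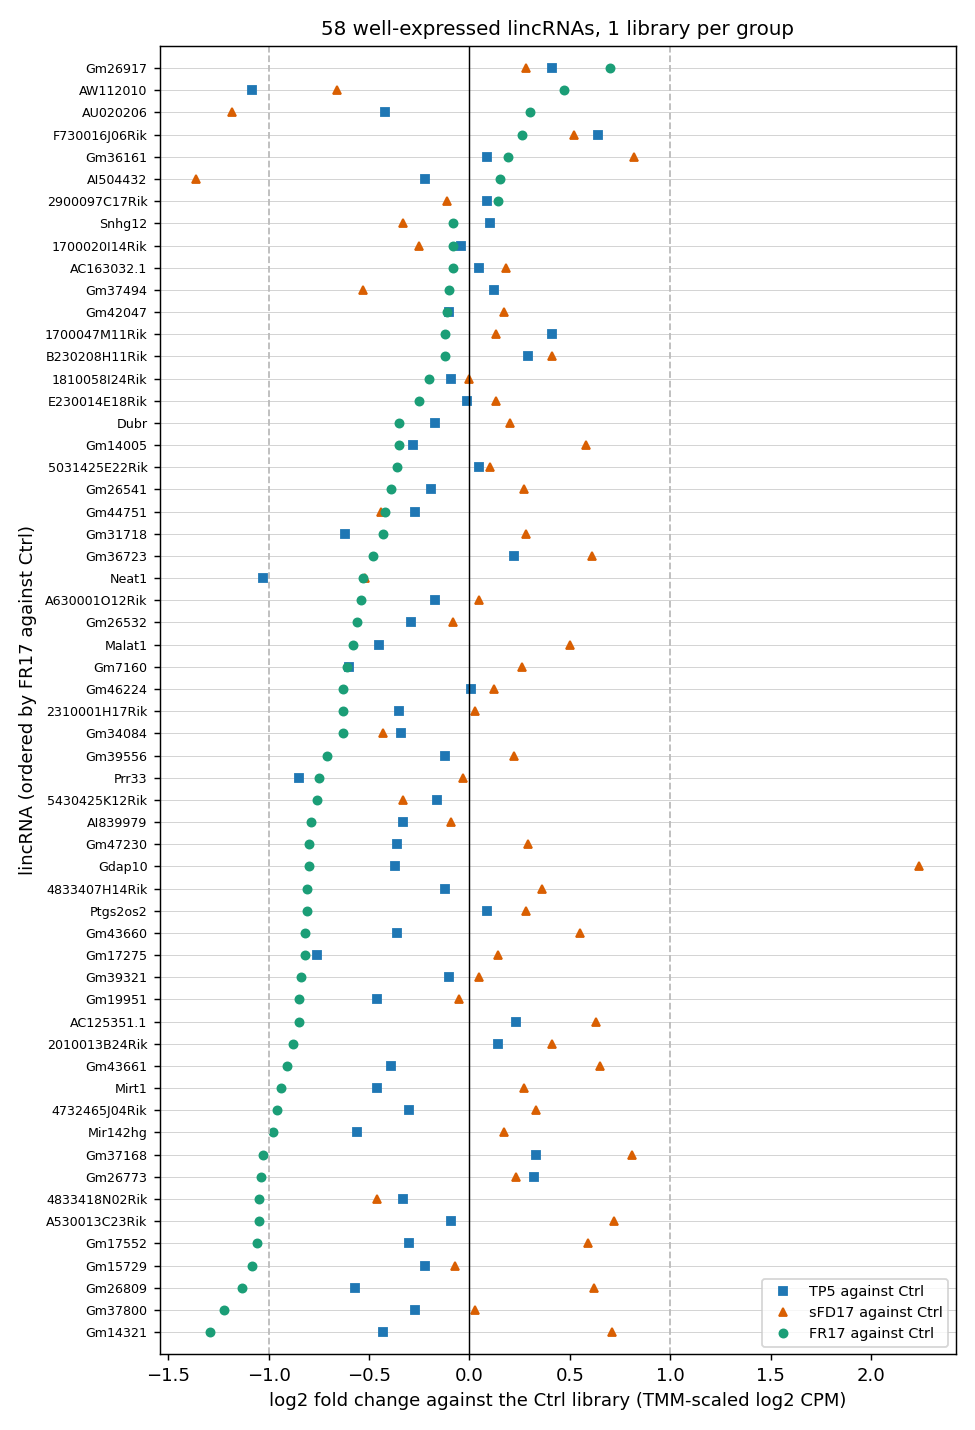
Log2 fold change of each of the 58 lincRNAs in the TP5 (squares), sFD17 (triangles) and FR17 (circles) libraries against the Ctrl library, on the x axis, with the lincRNAs on the y axis ordered by FR17. Dashed lines mark 2-fold; 51 of the 58 circles lie below 0, and Gdap10 in sFD17 is the farthest point at 2.24.

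Against Ctrl, FR17 had the lowest median of the 3 peptide libraries. The median log2 fold change of the members was −0.63 in FR17, where all 8108 rows had −0.05, and 51 of the 58 members were below 0. At least 2-fold lower in FR17 were 9 members (15.5%), against 1.02% of all rows, and 0 were at least 2-fold higher, against 0.111%. The median was −0.21 in TP5 (0.01 over all rows), with 2 members at least 2-fold lower (0.555% of all rows) and 0 at least 2-fold higher (0.419%). In sFD17 the median was 0.17 (0.03 over all rows), with 1 member at least 2-fold higher (2.16% of all rows) and 2 at least 2-fold lower (1.55%). In all 3 peptide libraries together 14 members (24.1%) passed 2-fold at least once, against 5.29% of all rows, and 0 members and 0 of all rows did so in the same direction in each. With scaling by library size alone, which moved the median of all rows to 0.19 in FR17 and −0.19 in sFD17, the members' medians were −0.38 and −0.04 and 1 member, Gm14321 at −1.05, was at least 2-fold lower in FR17, against 1 in TP5 and 2 in sFD17. Relative to all rows, the members' median was −0.57 in FR17 and 0.15 in sFD17. A scaling factor shifts all rows of a library nearly alike, so this difference could not change with the scaling. The shares of all rows past 2-fold with library size alone were not computed.

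The 9 members lower in FR17 were Gm14321, Gm37800, Gm26809, Gm15729, Gm17552, A530013C23Rik, 4833418N02Rik, Gm26773 and Gm37168. In GENCODE M21 Gm17552 is typed antisense and 4833418N02Rik a processed transcript. Their log2 fold changes ran only from −1.29 to −1.03, and Gm26809 was the 1 whose counting interval lay wholly past 2-fold, although with scaling by library size alone it was at −0.89. Gm26809 (chr6:18844220-18847360, plus strand) had 2664 counts in Ctrl, 1857 in TP5, 3195 in sFD17 and 1649 in FR17, or 158, 106, 242 and 71.8 CPM. It was the fifth member by level per kilobase in Ctrl, and FR17 was its lowest library, at −1.13 (−1.22 to −1.05) against Ctrl. Its exons share 855 bases with Gm20186 on the opposite strand. Gm14321 (chromosome 2) had 202, 155, 259 and 111 counts in the same order, and its value of −1.29 (−1.65 to −0.97) in FR17 was the lowest of the members. Gm37800 (chromosome 1) had 190, 163, 152 and 109 counts, at −1.22 (−1.60 to −0.90). In both, FR17 stood below the other 3 libraries, which lay closer together for Gm37800 than for Gm14321. A530013C23Rik begins 759 bases downstream of Cebpb, the gene of a C/EBP transcription factor needed for emergency granulopoiesis, and Gm14321 lies 87 kb downstream on the same strand. A530013C23Rik had 369, 361, 475 and 241 counts, and its log2 fold change against Ctrl was −0.09 for TP5, 0.72 for sFD17 and −1.05 for FR17. Cebpb itself had 58103, 47498, 51623 and 51926 counts, with log2 fold changes of −0.35, 0.19 and −0.60.

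The highest members in FR17 against Ctrl were Gm26917 and AW112010, at 0.70 (0.51 to 0.90) and 0.47 (0.29 to 0.66), both under 2-fold. Gm26917 (chr17:39843013-39846341) had 313, 432, 297 and 691 counts in the order Ctrl, TP5, sFD17, FR17. The table places the ribosomal RNA row CT010467.1 beside it on the opposite strand, from 39846353 to 39848827, and that row had 4905, 5276, 4886 and 11364 counts. Its log2 fold change in FR17 was 0.77, and the part of ribosomal RNA reads in the Gm26917 count was not tested.

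The members past 2-fold in TP5 against Ctrl were Neat1 and AW112010, of which Neat1 was at −0.98 with scaling by library size alone. Neat1 (chr19:5824708-5845478), the RNA around which paraspeckles form, had 3462 counts in Ctrl, 1760 in TP5, 1888 in sFD17 and 3254 in FR17, which is 205, 100, 143 and 142 CPM. Ctrl was above all 3 peptide libraries, at a log2 fold change of −1.03 (−1.11 to −0.95) for TP5, −0.52 for sFD17 and −0.53 for FR17. Of 15 paraspeckle protein genes 0 passed 2-fold in TP5 against Ctrl, where 0.555% of all rows were lower and 0.419% higher. The median of these genes there was 0.08, against 0.01 over all rows. AW112010, a transcript annotated as a lincRNA that is induced by interferon gamma and is known to encode a small protein, had 366, 179, 180 and 692 counts. It was at −1.08 (−1.35 to −0.82) for TP5, −0.66 for sFD17 and 0.47 for FR17, so that TP5 and sFD17 stood low and FR17 high. Relative to Ctrl the summed markers of macrophages (0.748, 0.373 and 1.24), T cells (0.813, 0.613 and 1.78), NK cells (0.821, 0.885 and 2.94) and platelets (0.424, 0.268 and 1.31) were likewise below 1 in TP5 and sFD17 and above 1 in FR17. Those of monocytes (0.949, 0.943 and 1.07) and fibroblasts (0.563, 0.862 and 1.03) were so too. Those of neutrophils, B and plasma cells, dendritic cells, endothelium and epithelium were not. Single markers did not all follow their sum. Higher than Ctrl in TP5, sFD17 and FR17 were 0, 0 and 8 of 10 macrophage markers, 5, 2 and 7 of 7 T cell markers, 1, 3 and 6 of 6 NK cell markers and 3, 3 and 4 of 5 platelet markers. Cd4 held 398 of the 789 T cell marker counts in Ctrl and was at −1.10, −1.73 and 0.49 in TP5, sFD17 and FR17. The platelet sum was mostly Pf4, with 1733 of 1881 counts in Ctrl, and Gp1bb of that list had 0 counts in all 4 libraries. The part of these cells in the AW112010 count was not tested. The members with the highest values in TP5 were F730016J06Rik at 0.64, with 258, 418, 290 and 419 counts, and 1700047M11Rik at 0.41, with 509, 705, 435 and 637. F730016J06Rik lies 10.6 kb from Fcnb, the gene of ficolin B, a pattern-recognition lectin of myeloid cells, which had 156, 510, 296 and 388 counts and was at 1.64 in TP5. Prr33, Gm17275 and Gm31718 were at −0.85, −0.76 and −0.62 in TP5 and complete the 5 lowest.

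In sFD17, Gdap10 stood apart upward and AI504432 and AU020206 downward. Gdap10 (chr12:32821872-32826904) had 198 counts in Ctrl, 159 in TP5, 738 in sFD17 and 153 in FR17, or 11.7, 9.06, 55.9 and 6.67 CPM. Only sFD17 was high, at a log2 fold change of 2.24 (2.03 to 2.49), and Gdap10 had the widest range of all members, 3.05. Its body lies inside that of Nampt on the same strand, without shared exon bases. Nampt, which encodes the rate-limiting enzyme of NAD salvage, had 3062, 2904, 5378 and 3155 counts and was at 1.17 in sFD17. The part of unspliced Nampt RNA in the Gdap10 count was not tested. AI504432 (chr3:107039504-107054347) had 1242, 1110, 377 and 1875 counts and AU020206 (chr7:75769038-75782099) had 1215, 945, 418 and 2028. Both were lowest in sFD17 and highest in FR17. AI504432 was at −1.36 (−1.53 to −1.20) in sFD17 and 0.15 in FR17, and AU020206 at −1.18 (−1.35 to −1.02) and 0.30. The summed level of the 10 macrophage markers moved in the same way, to 0.373 of Ctrl in sFD17 (0 of 10 higher) and to 1.24 in FR17 (8 of 10 higher), and no marker of that list was at 0. The part of macrophages in these members' counts was not tested. The other members among the 5 highest in sFD17, after Gdap10, were Gm36161 (0.82), Gm37168 (0.81), A530013C23Rik (0.72) and Gm14321 (0.71), all under 2-fold.

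**Figure D2:**
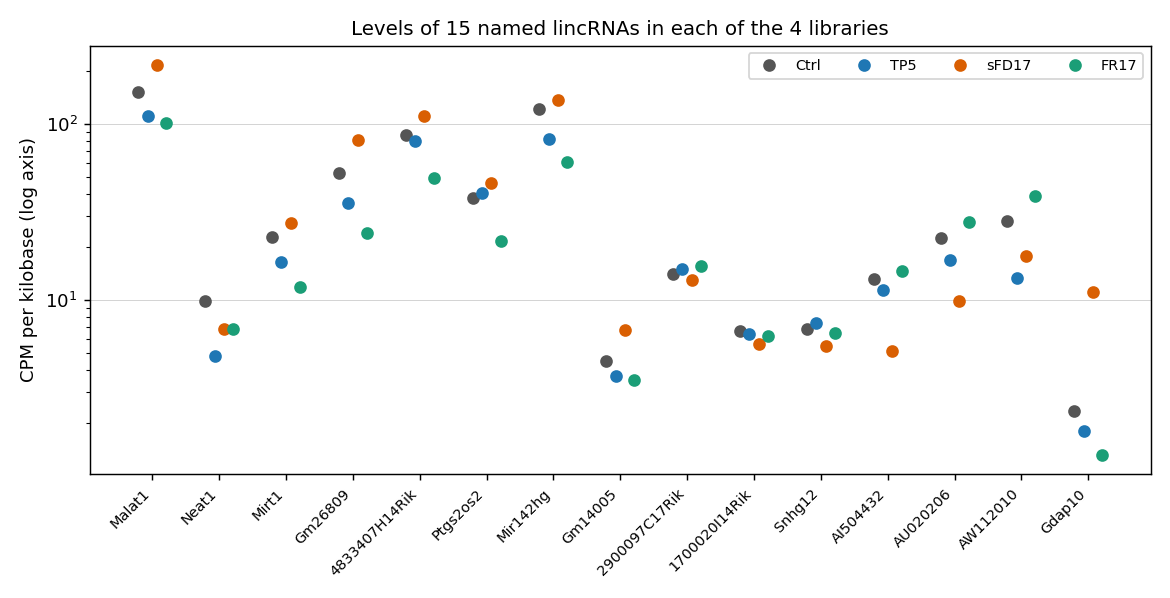
Level of 15 named lincRNAs in CPM per kilobase of the annotated gene length, on a log axis, with 1 point for each of the 4 libraries. Malat1 and Mir142hg were among the highest, sFD17 was on top for Malat1, Gm26809 and Gdap10, and the points of 2900097C17Rik and 1700020I14Rik lay close together.

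Per kilobase, members ranged from 1.07 to 152 CPM in Ctrl with a median of 10.2, against a median of 8.45 for protein-coding rows under the same count rule. In FR17 the members' median was 6.68 against 8.12. The 10 highest members per kilobase in Ctrl were, in this order, Malat1, Gm26532, Mir142hg, 4833407H14Rik, Gm26809, Gm34084, Ptgs2os2, Gm15729, AW112010 and AI839979. Malat1 (chr19:5795690-5802672), which gathers in nuclear speckles with splicing factors, had 17905 counts in Ctrl, 13634 in TP5, 19786 in sFD17 and 16222 in FR17. It made up 30.8% to 39.7% of the members' counts, and its level was 1060, 777, 1500 and 707 CPM. sFD17 was the highest library and FR17 the lowest, with FR17 against sFD17 at −1.08 (−1.12 to −1.06). That value was −0.97 without a filter on low counts and −0.62 with scaling by library size alone, both under 2-fold, and under the latter TP5 was the lowest library, FR17 being at 0.06 against it. Of 15 nuclear speckle protein genes 0 passed 2-fold in any comparison, and 86.1% of all rows likewise stayed under 2-fold in all 6 comparisons. The median of these genes in FR17 against sFD17 was −0.26, against −0.08 over all rows. With library size alone it turned to 0.20, against 0.38 over all rows, and 1 of the 15, Pnn, passed 2-fold. The widest changes of that list were those of Srrm2 and Son, both at −0.98.

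Mir142hg and Gm26532 lie at the microRNA genes shown above. Mir142hg (chr11:87755577-87757270) had 549, 386, 483 and 376 counts, and it was at −0.56 for TP5, 0.17 for sFD17 and −0.98 (−1.18 to −0.80) for FR17 against Ctrl. The Mir142 hairpin row on its strand had 0 counts in every library, and the Mir142b row on the opposite strand, also inside the intron, had 109, 95, 116 and 91. Gm26532, next to the Mir23a cluster, had 1480, 1257, 1095 and 1367 counts and was highest in Ctrl. Its values were −0.29 for TP5, −0.08 for sFD17 and −0.56 (−0.66 to −0.45) for FR17. Mirt1, a transcript first described in infarcted heart tissue, had 3325, 2514, 3141 and 2362 counts, and 4833407H14Rik had 2179, 2086, 2184 and 1692. These members lie on opposite strands of chromosome 19 and share 1008 exon bases, and FR17 was the lowest library for both, at −0.94 and −0.81 against Ctrl. The paper names a directional library kit, but whether their reads were counted by strand is not given in the sources used here.

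Ptgs2os2 and Gm14005 are the members on the list of immune and inflammation RNAs. Ptgs2os2, or lincRNA-Cox2, is induced with inflammatory genes in macrophages, and it had 1127 counts in Ctrl, 1243 in TP5, 1070 in sFD17 and 871 in FR17. Ctrl, TP5 and sFD17 lay between 66.7 and 81.1 CPM and FR17 at 37.9, a log2 fold change of −0.81 (−0.94 to −0.69) against Ctrl and −1.09 (−1.23 to −0.97) against sFD17, the latter −0.63 with library size alone. Ptgs2, the gene of cyclooxygenase-2, lies 50.8 kb away and had 48880, 48388, 50376 and 34716 counts, with −0.94 in FR17 against Ctrl. Pla2g4a, a phospholipase gene 198 kb away, was at 0.29. Gm14005, or Morrbid, is known for lengthening the life of neutrophils and monocytes by repressing the neighbouring Bcl2l11, which encodes the pro-apoptotic protein BIM. It had 310, 264, 363 and 331 counts, or 18.4, 15.1, 27.5 and 14.4 CPM, with sFD17 the highest library at 0.58 (0.36 to 0.81). Bcl2l11, at 15.8 kb, had 2449, 2662, 3436 and 2263 counts and was likewise highest in sFD17, at 0.84. In FR17 Gm14005 was at −0.35 and Bcl2l11 at −0.56.

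Of 15 interferon-stimulated genes 14 were at least 2-fold higher in sFD17 than in Ctrl, against 2.16% of all rows, with a median of 2.39. Gbp2 had 1654, 978, 15599 and 1605 counts and Ifit2 had 260, 259, 3217 and 266. The 7 members with GAAANNGAA in the first listed promoter, namely 4833407H14Rik, Ptgs2os2, 2310001H17Rik, Gm36161, Gm36723, Gm31718 and Gm46224, were between 0.03 and 0.82 in sFD17, all under 2-fold. Only 2.16% of all rows and 1.72% of the members were at least 2-fold higher there, so this does not set the 7 apart. For Gm36723, Gm31718 and Gm46224 that promoter lies away from the start of the counted row, as given above.

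The conserved cytoplasmic RNAs and the snoRNA host were among the most even members. Norad (2900097C17Rik) had 1173 counts in Ctrl, 1296 in TP5, 848 in sFD17 and 1757 in FR17, which is 69.4, 73.9, 64.3 and 76.5 CPM. Cyrano (1700020I14Rik) had 935, 942, 615 and 1199 counts, or 55.4, 53.7, 46.6 and 52.2 CPM. The range over the 4 libraries was 0.25 log2 units for each, and 1810058I24Rik, at 0.20, was the 1 member below them. With library size alone FR17 against sFD17 was at 0.71 for Norad and 0.62 for Cyrano. Snhg12 had 280, 311, 174 and 360 counts with a range of 0.42. Its values against Ctrl were 0.10, −0.33 and −0.08, and the 5 small nucleolar RNA rows on its exons had 0 counts throughout. For these 3 RNAs sFD17 was the lowest library, the reverse of Malat1. Of 7 snoRNP core protein genes with at least 100 counts in each library, 1 was at least 2-fold lower in sFD17 than in TP5 (Nop58, −1.02) and 1 at least 2-fold higher in FR17 than in sFD17 (Nhp2, 1.01). The shares of all rows were 1.01% and 3.37%. With library size alone 5 of the 7 were at least 2-fold higher in FR17 than in sFD17. That scaling moved the median of all rows to 0.38, and the share of all rows past 2-fold under it was not computed. Of 15 factors of nonsense-mediated decay, a pathway that degrades many spliced non-coding RNAs, 1 passed 2-fold in any comparison, Smg1 at −1.10 in FR17 against sFD17, and 0 did so with library size alone. Among all rows 86.1% were likewise under 2-fold in all 6 comparisons.

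The assembling peptides FR17 and sFD17, which differ in whether the TP5 sequence is intact or scrambled, were the libraries farthest apart. FR17 against sFD17 gave a median of −0.72 over the members and −0.08 over all rows. At least 2-fold lower in FR17 were 21 members (36.2%), against 9.09% of all rows, and at least 2-fold higher were 3 (5.17%), against 3.37%. Counting intervals lay wholly past 2-fold for 13 of the 21. With scaling by library size alone 8 members were at least 2-fold lower, and the median was −0.26 where that of all rows was 0.38. The share of all rows past 2-fold under that scaling was not computed. The 3 lowest values were those of Gdap10 at −3.05 (−3.33 to −2.82), Gm14321 at −2.0 (−2.36 to −1.69) and Gm37168 at −1.85 (−2.13 to −1.60). Gm37168 had 264 counts in Ctrl, 344 in TP5, 364 in sFD17 and 174 in FR17, with FR17 alone below 200. The 3 higher members were AI504432 at 1.51 (1.36 to 1.68), AU020206 at 1.48 (1.33 to 1.64) and AW112010 at 1.14 (0.91 to 1.39). Beside them, the NK cell markers summed to 2.94 of Ctrl in FR17 and 0.885 in sFD17, with no marker at 0. The sums of T cells (1.78 and 0.613), macrophages (1.24 and 0.373) and platelets (1.31 and 0.268) were also higher in FR17. Those of neutrophils (0.854 and 1.29) and epithelium (1.2 and 2.03) were lower. The part of these cells in the members' values was not tested.

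FR17 and TP5, which share the intact TP5 sequence and differ in the assembling carrier, were closer. The median was −0.40, against −0.11 over all rows. Lower by at least 2-fold were 4 members (6.90%, against 0.419% of all rows): Gm37168 and Gm26773, both at −1.36, AC125351.1 at −1.08 and 2010013B24Rik at −1.02. Gm26773 had 268, 349, 245 and 176 counts, AC125351.1 had 233, 284, 283 and 174, and 2010013B24Rik had 137, 157, 143 and 100. With library size alone Gm37168 and Gm26773 passed 2-fold, both at −1.17. AW112010 alone was at least 2-fold higher, at 1.55 (1.32 to 1.81), against 1.04% of all rows. sFD17 against TP5 gave a median of 0.32, against −0.01. At least 2-fold higher were 4 members (against 2.87% of all rows), namely Gdap10 at 2.61, Gm26809 at 1.19, Gm14321 at 1.14 and Gm43661 at 1.04, of which Gdap10 passed 2-fold with library size alone. AI504432 was at least 2-fold lower at −1.14, against 1.01% of all rows. The comparisons share libraries, so their counts are not independent of each other. Under 2-fold in all 6 comparisons were 32 members (55.2%), against 86.1% of all rows.

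**Figure D3:**
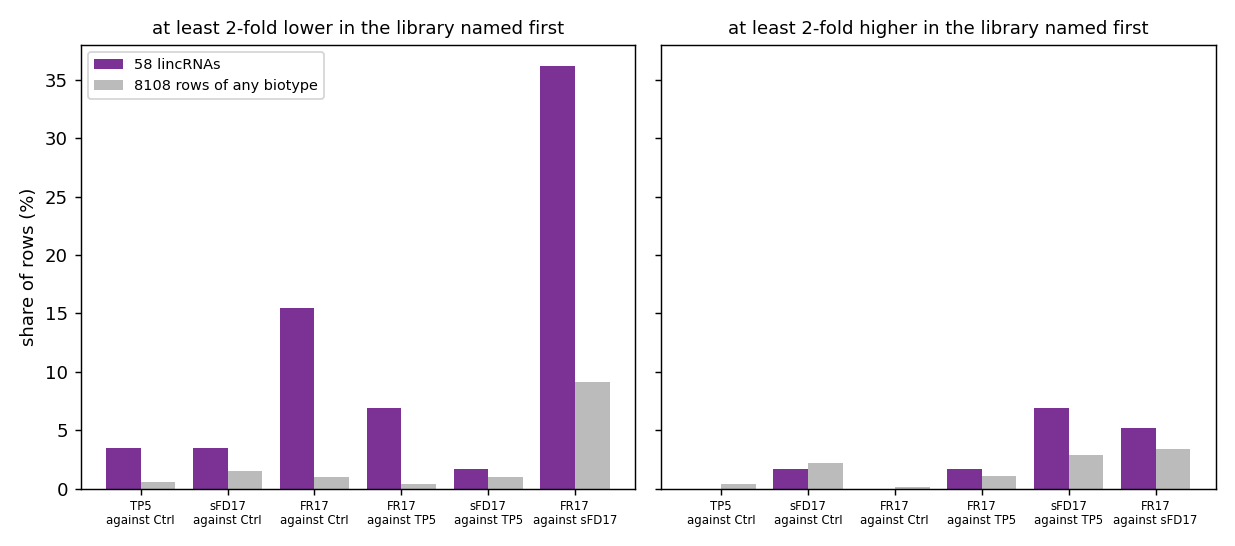
Share of rows at least 2-fold lower (left) or higher (right) in the library named first, in percent, for the 58 lincRNAs and for the 8108 rows of any biotype with at least 100 counts in each library. The tallest bar is FR17 against sFD17, lower, at 36.2% of the lincRNAs and 9.09% of all rows.

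Antisense, TEC and processed transcript rows under the same count rule lay on the same side as the lincRNAs. FR17 against sFD17 had a median of −1.0 over 35 antisense rows, −1.46 over 26 TEC rows, a class of loci that still need experimental evidence, and −0.51 over 36 processed transcripts, beside −0.72 for the lincRNAs. It was −0.07 over 7797 protein-coding rows and 0.04 over 98 processed pseudogenes. The share at least 2-fold lower was 51.4% of antisense rows, 73.1% of TEC rows, 22.2% of processed transcripts, 8.27% of protein-coding rows and 13.3% of processed pseudogenes. Lower values in FR17 than in sFD17 were thus not limited to lincRNAs, and the medians of the TEC and antisense rows were lower still.

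**Figure D4:**
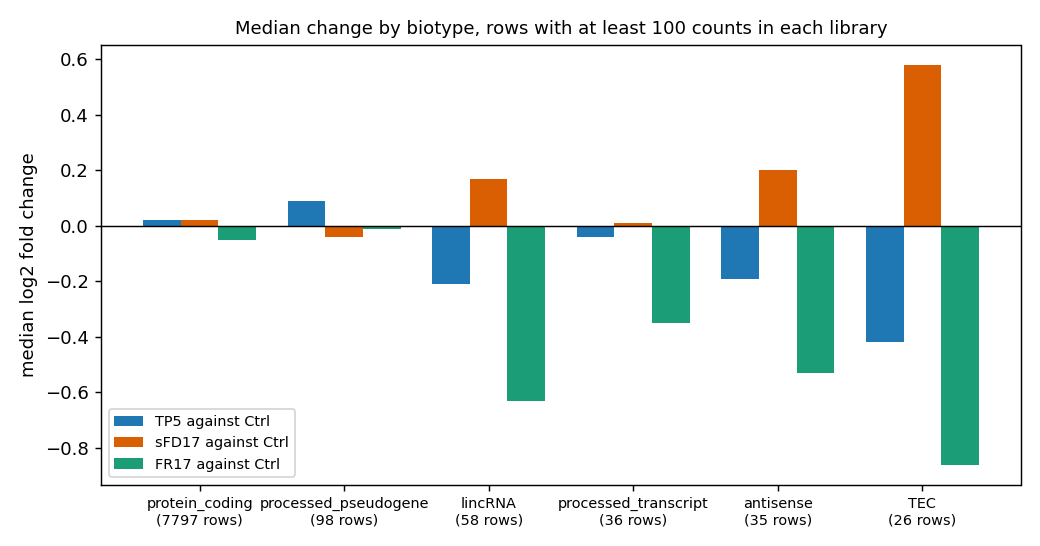
Median log2 fold change against Ctrl, on the y axis, in the TP5, sFD17 and FR17 libraries for the 6 biotypes with at least 20 rows of 100 or more counts in each library. The FR17 median was −0.63 for lincRNAs, −0.53 for antisense rows, −0.86 for TEC rows and −0.05 for protein-coding rows.

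Members often lay near a well-counted coding gene. The median distance to the nearest protein-coding row with at least 100 counts in each library was 11.5 kb, 28 members were within 10 kb and 6 overlapped it. In FR17 against sFD17 the member and that neighbour had the same sign in 47 of 58 pairs (81%), against 54.6% of 7794 protein-coding rows with their own nearest neighbours. Of the members 49 and of these neighbours 44 were below 0, whereas 45.3% of protein-coding rows were above 0, so the 2 shares do not start from the same balance of signs. The number was 23 of 28 within 10 kb and 24 of 30 beyond it. In both sets the members' and the neighbours' medians were negative, at −0.62 and −0.67 within 10 kb and −0.76 and −0.57 beyond. Past 2-fold in the same direction were 6 pairs (10.3%), against 2.12% of the pairs of protein-coding rows, and in opposite directions 1 (1.72%, against 0.372%), namely AU020206 at 1.48 and Akap13 at −1.04. AI504432 lies 1434 bases downstream of Kcna3, a potassium channel gene of leukocytes that had 304, 261, 133 and 309 counts. Gm26809 and Lsm8, 1219 bases away, had opposite signs at −1.75 and 0.13. Gm37800 lies 97.7 kb from Hlx, Gm15729 796 bases from Cep19 and Gm26773 across Tgds, whose values in FR17 against Ctrl were −0.40, −0.24 and −0.69. Gm17552 lies inside Carns1 on the opposite strand and shares 3157 exon bases with it and AC109138.8, and Carns1 was at −1.0 where Gm17552 was at −1.06. Shared exon bases were found for 18 of the 58 members, 14 of them with a gene on the opposite strand.

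**Figure D5:**
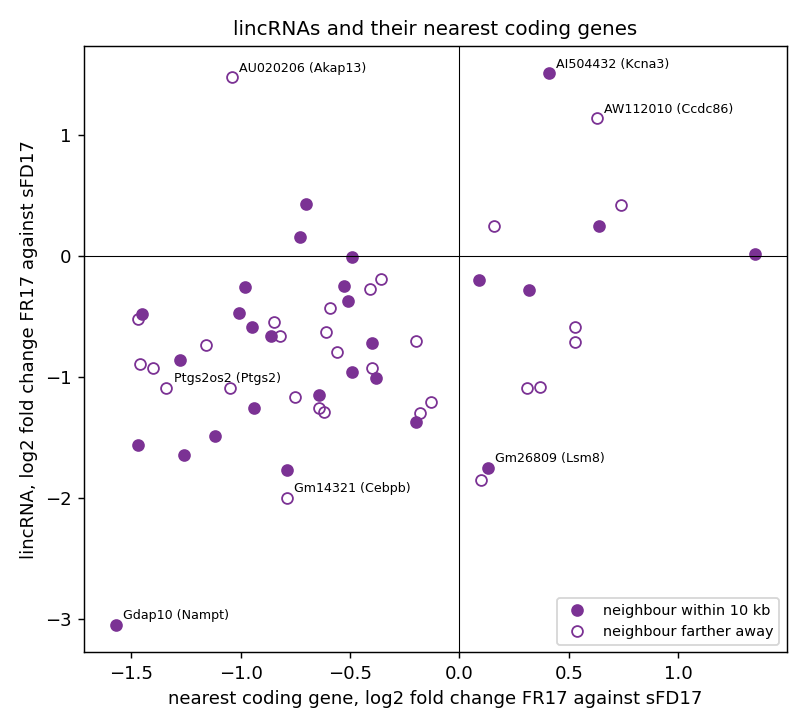
Log2 fold change in FR17 against sFD17 of each of the 58 lincRNAs (y axis) and of its nearest coding gene with at least 100 counts in each library (x axis). Filled circles are pairs within 10 kb; 47 pairs share their sign, most of them below 0 on both axes.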

How the data were processed

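CD11b+Ly6g+ cells sorted from lungs and pooled per group gave 1 mRNA library each for Ctrl, TP5, sFD17 and FR17. The authors deposited whole-number read counts per gene, and the submitters' processing notes name HISAT2 2.0.5, StringTie 1.3.3b, featureCounts 1.5.0-p3, edgeR 3.18.1 and the build GRCm38.p6, without saying whether reads were counted by strand. The deposited table also gives gene lengths, biotypes and positions.

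Counts were scaled with TMM in edgeR 4.0.16 (R 4.3.3) over 16369 rows with at least 10 counts in 1 or more libraries, and log2 CPM were taken with a prior count of 2. The TMM factors were 0.986 (Ctrl), 1.02 (TP5), 0.849 (sFD17) and 1.17 (FR17). A difference of at least 2-fold was called, and exact conditional 95% intervals of each pair of counts were computed with scipy 1.17.1. No test of groups was possible with 1 library each. The scaling was tested on simulated data, and that test does not show which scaling suits these libraries. Promoters and microRNAs came from RefSeq and transcripts from GENCODE M21. Alternatives were DESeq2 1.42.0 size factors, library size alone, other filters, prior counts, folds and membership limits.

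The members and the lists were chosen with earlier results of these data known. Named were members of the role lists, the 10 highest per kilobase in Ctrl, the 5 largest changes in each direction against Ctrl (3 between peptides) with their nearest coding genes, the members next to the count limit, and up to 2 genes of each protein list, some of which are not reported here. Other names, those past 2-fold or with a promoter motif, were chosen after their values were seen.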

Additional observations from a re-analysis of the deposited data

How the results depend on the processing

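No paired analysis was possible because each group had 1 library, and for the same reason no replicate could be left out. Scaling by library size alone moved the median of all rows to between −0.28 and 0.38 over the 6 comparisons, and the members with it. The members' median was then −0.04 for sFD17 against Ctrl (the 1 reversal, from 0.17), −0.38 for FR17 against Ctrl, −0.21 for FR17 against TP5, 0.06 for sFD17 against TP5 and −0.26 for FR17 against sFD17. The members at least 2-fold lower were then 1 in TP5 and 1 in FR17 against Ctrl, 2 in FR17 and 2 in sFD17 against TP5 and 8 in FR17 against sFD17, and 1 was at least 2-fold higher in sFD17 against TP5. For the alternatives here and in the next paragraph the share of all rows called was not computed, so these counts have no baseline. Without a filter on low counts 4 members were lower in FR17 against Ctrl, and the median of FR17 against sFD17 was −0.61. Calling at 1.5-fold gave 1 higher and 6 lower in TP5, 10 higher in sFD17 and 1 higher and 31 lower in FR17 against Ctrl, 2 higher and 18 lower in FR17 and 18 higher and 3 lower in sFD17 against TP5, and 36 lower in FR17 against sFD17.

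With a membership limit of 50 counts (98 members), 3 were higher in sFD17 and 15 lower in FR17 against Ctrl, 8 lower in FR17 and 7 higher in sFD17 against TP5, and 5 higher and 36 lower in FR17 against sFD17. With a limit of 200 counts (34 members), 1 was lower in TP5, 0 higher in sFD17 and 2 lower in FR17 against Ctrl, 0 higher and 0 lower in FR17 (median −0.28) and 1 higher in sFD17 against TP5, and 8 lower in FR17 against sFD17. Over the 40 members with no shared exon, 1 was lower in TP5 and 5 in FR17 against Ctrl, 2 were higher in sFD17 against TP5 (median 0.21) and 13 lower in FR17 against sFD17. The share of members called also fell with the limit of 200 counts, from 15.5% to 5.88% lower in FR17 against Ctrl, from 6.90% to 0% lower in FR17 against TP5 and from 36.2% to 23.5% lower in FR17 against sFD17. The share of all rows called at that limit was not computed, and the cause of the fall was not tested. The members' share of counts was 0.336% in Ctrl, 0.276% in TP5, 0.346% in sFD17 and 0.276% in FR17 when the 10 most abundant genes of each library were left out of the total, and 0.208%, 0.178%, 0.193% and 0.174% without Malat1. That last setting puts Ctrl above sFD17. The other 114 values kept their direction and stayed within 1.5 times the reported count, 0.1 of the reported median or the interval of the share. Over the 37 members named by rule, 1076 values kept their side of 2-fold, 32 lost the call and 2 gained it. Most of the 1076 were under 2-fold as reported and had no call to lose. Of the 32 lost calls 22 fell with library size alone, where 199 values kept their side. A change of sign occurred in 29 values, 23 of them with library size alone, all at most 0.27 in size as reported.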
